A study of Mus musculus with 32 samples.

Results

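The 48 cell cycle and DNA replication genes described here were followed in mononuclear phagocytes of the mouse lung, the macrophages and monocytes that take up debris and microbes there. They were chosen by name, as a list of gene symbols among the 24940 genes of the deposited expression table, and levels did not enter the rule. The list was nevertheless drawn up with earlier results of these data known. The table holds 16 RNA-seq libraries, 2 for each of 4 cell types in each of 2 inbred strains, C57BL6/J and DBA2/J, and the same 8 groups have an ATAC-seq peak list each, made from 2 libraries. The cell types are alveolar macrophages (AM), which live in the air spaces, interstitial macrophages (IM) of the lung tissue, and monocytes labelled iMo and pMo (patrolling monocytes). The design text calls iMo inflammatory monocytes, while their sample labels call them inflammatory macrophages. The labels used here name no treatment, age, sex or transgene for any group. No label ties a replicate to an animal of its own. The p-values therefore reflect the scatter among these libraries alone, and that scatter may be technical.

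A dividing cell copies its DNA in S phase and separates the copies in M phase. The MCM proteins, loaded onto DNA with the help of Cdc6 and Cdt1, form the helicase that opens replication origins, and ribonucleotide reductase supplies the DNA building blocks. Later in the cycle, Cdk1 with cyclins A and B drives entry into mitosis, the kinetochore and spindle proteins move the chromosomes, and the anaphase-promoting complex ends mitosis by marking cyclins for destruction. Tissue-resident alveolar macrophages are known to renew themselves by division in the lung, while circulating monocytes arise from dividing precursors in the bone marrow.

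Levels are given in TPM, the length-scaled share of transcripts in a library, after removal of 2 ribosomal RNA entries, Rn45s and Mir6236, and rescaling to a total of 1000000. The length behind the deposited TPM is the genomic span of a gene, introns included, for all 48 genes, so levels are compared between libraries for a gene and not between genes. Reads outside the ribosomal entries numbered 9972361 to 15886152 in AM, 5936096 to 10078282 in IM, 6380647 to 12170075 in iMo and 9045446 to 12111275 in pMo, as recovered from the TPM steps. Differences were tested with limma on log2(TPM + 1) over all 16 libraries and the 13873 genes whose mean reached 1 TPM, and a call means an adjusted p (Benjamini-Hochberg) under 0.05. That filter was passed by 47 of the 48 genes. Chek1, a checkpoint kinase, did not and was not tested.

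The labels were set against marker genes. Summed markers of alveolar macrophages were 9486 to 12519 TPM in AM and 857 to 5097 TPM in the other libraries, and summed interstitial macrophage markers were 16660 to 38653 TPM in IM against 639 to 11795 TPM elsewhere. Markers of patrolling monocytes were highest in pMo (13704 to 15382 TPM) and those of inflammatory monocytes highest in iMo (5432 to 7056 TPM). IM libraries also carried neutrophil markers at 5534 to 8474 TPM, against 1.75 to 50.4 TPM in the other libraries, with 0 of 8 neutrophil markers at 0 in all IM libraries. B and plasma cell markers summed to 173 to 757 TPM in IM, 188 to 952 TPM in pMo, 106 to 264 TPM in iMo and 12.5 to 63.8 TPM in AM. In such bulk samples, fewer cells of a type and less RNA per cell cannot be told apart.

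The summed level of the 48 genes was highest in AM in both strains. In C57BL6J it was 1396 and 1562 TPM in AM, 937 and 1012 TPM in IM, 815 and 889 TPM in pMo, and 546 and 596 TPM in iMo. In DBA2J the sums were 895 and 980 TPM in AM, 703 and 587 TPM in IM, 518 and 562 TPM in pMo, and 428 and 401 TPM in iMo. Within each strain the order AM, IM, pMo, iMo held with no overlap between neighbours, and each DBA2J group lay below the C57BL6J group of the same cell type. This order is one of rescaled levels. The removed ribosomal entries held 64.3% to 67.6% of the listed TPM in AM and 40.9% to 45.0% in IM, so rescaling raised AM more. Taken back to the deposited scale, the AM and IM sums overlap in each strain, and so do the pMo and iMo sums in DBA2J. Hjurp alone gave 270 and 285 TPM of the sums in C57BL6J pMo. Without Hjurp the C57BL6J sums were 545 and 604 TPM in pMo and 453 and 481 TPM in iMo, and the order was the same in both strains.

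**Figure D1:**
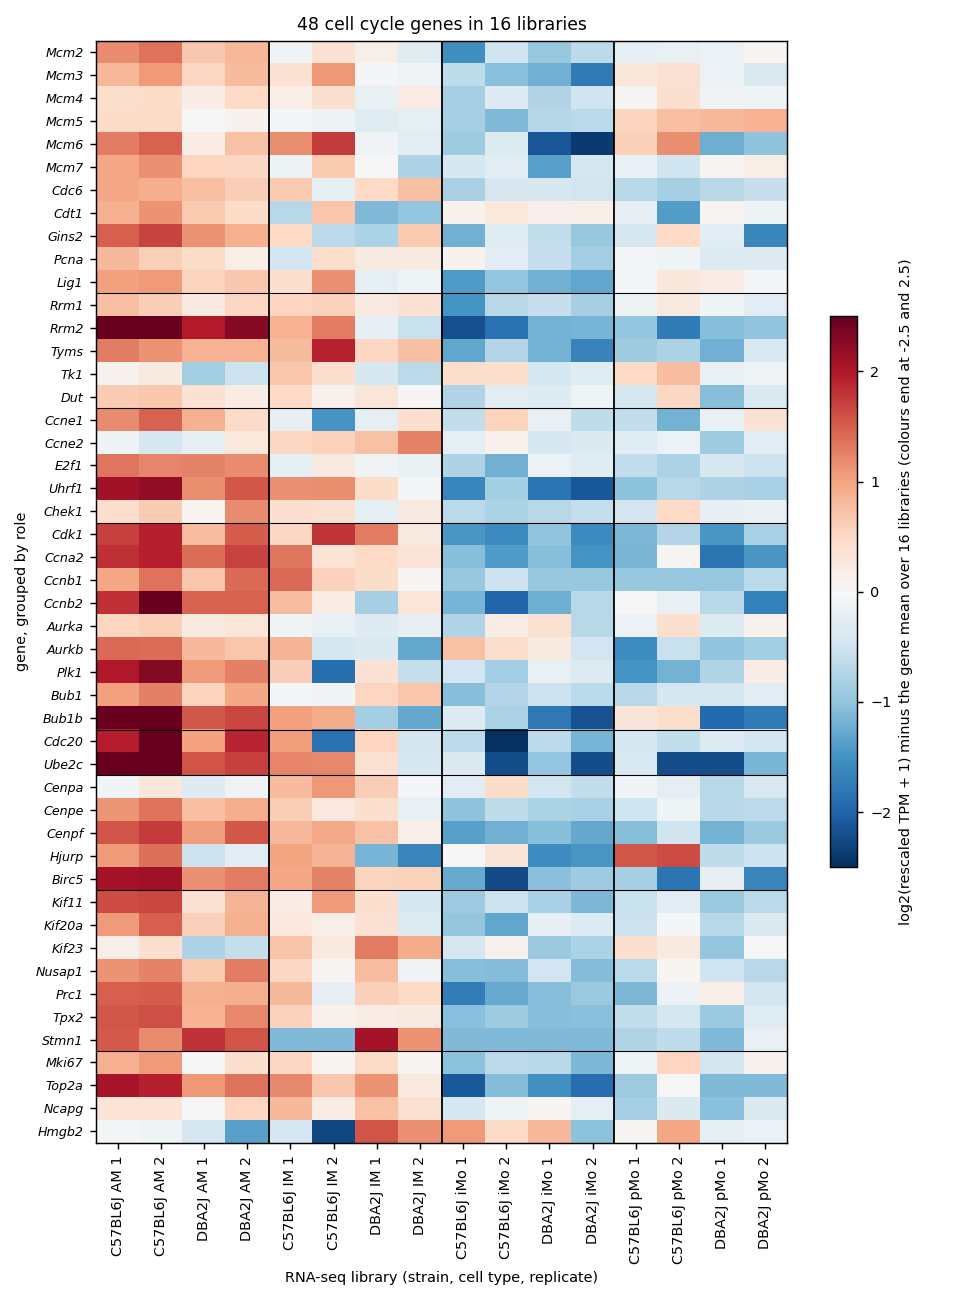
Heat map of the 48 genes (rows, grouped by role, with lines between roles) in the 16 RNA-seq libraries (columns, strain, cell type and replicate). Colour is log2(TPM + 1) minus the gene's mean over the 16 libraries, with the scale ending at -2.5 and 2.5. AM libraries are red for most genes and monocyte libraries are blue, while Tk1, Ccne2, Cenpa, Kif23, Hjurp and Hmgb2 depart from that pattern.

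Alveolar macrophages had more RNA of genes from every stage of the cycle than the monocytes did. Of the 47 genes tested, 41 were called higher in AM than in the mean of both monocyte types, where 27.6% of all genes were, and 1 was called lower, where 30.1% of all genes were. The median log2 difference was 1.57 for the 47 genes and -0.02 for all genes tested. With both macrophage types set against both monocyte types, 40 genes were called higher (31.1% of all genes) and 1 lower (20.8% of all genes), with a median of 1.22 against 0.10 for all genes. The AM mean was the highest of the 4 cell types for 38 of the 47 genes, as it was for 27.1% of all genes, and it was the highest in both strains for 36 genes, against 19.6% of all genes. In 31 genes every AM library lay above every monocyte library, which held for 17.1% of all genes. Among libraries of 1 strain at a time, 35 genes were called higher in AM in C57BL6J and 35 in DBA2J. The share of all genes in those 2 fits is not given here. Markers of other cell types also differed in this comparison. Of 6 endothelial markers 4 were called higher in AM and 1 lower, with sums of 43.2 to 410 TPM against 34.0 to 100.04 TPM in monocytes, and 2 of 5 tested epithelial markers were called higher (14.1 to 88.7 TPM against 3.59 to 39.4 TPM). Of 6 B and plasma cell markers 5 were called lower in AM, as were 4 of 6 tested T and NK cell markers. Their part in the AM levels was not tested.

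All 11 genes of replication licensing and the replication fork were called higher in AM than in monocytes. Mcm2, a helicase subunit, was at 32.4 and 37.0 TPM in C57BL6J AM and 22.6 and 25.2 TPM in DBA2J AM. In the 8 monocyte libraries it ranged from 4.08 through a median of 10.5 to 14.4 TPM. The groups did not overlap, and the log2 difference was 1.53 ± 0.19 (SE, adjusted p = 4.06e-05). Mcm6 (chr1:128331575-128359705, minus strand, mm10) differed by 1.70 ± 0.18, Lig1, the ligase that joins Okazaki fragments, by 1.40 ± 0.16, and Gins2, a subunit of the active helicase, by 1.91 ± 0.37. Gins2 overlaps Gse1 on the opposite strand. The smallest difference of the group was in Mcm5, at 0.30 ± 0.09 (adjusted p = 0.0146), and Mcm5 levels in pMo (27.6 to 34.7 TPM) lay above all AM levels (18.4 to 26.2 TPM). Pcna, the sliding clamp of the polymerases, was at 68.5 to 107.8 TPM in AM and 33.4 to 64.5 TPM in monocytes, with no overlap.

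Among the 5 genes of nucleotide supply, 4 were called higher in AM and Tk1 was called lower. Rrm2 (chr12:24708254-24714146, plus strand), the small subunit of ribonucleotide reductase and its cell-cycle-limited part, was at 45.0 and 48.7 TPM in C57BL6J AM and 26.6 and 33.0 TPM in DBA2J AM. Monocyte libraries had 0.53 to 2.62 TPM with a median of 2.12 TPM. Each AM library stood above each monocyte library, and the difference of 3.84 ± 0.17 (adjusted p = 1.07e-08) was the largest of the 47 on the log2(TPM + 1) scale. As a fold of AM over monocyte means, Rrm2 (21.5) lay below Ccnb1 (46.1), Stmn1 (26.9), Ube2c (26.6), Cenpf (26.0) and Cdk1 (23.9). Rrm1, the large subunit, differed by 1.00 ± 0.16 and Tyms, which makes thymidylate, by 2.05 ± 0.25. Tk1, the thymidine salvage kinase, was at 35.1 to 76.0 TPM in AM and 48.01 to 111.92 TPM in monocytes, a log2 difference of -0.42 ± 0.10 (adjusted p = 0.00432). These ranges overlapped only with the strains pooled. Within each strain every AM library lay below every monocyte library. Tk1 overlaps Afmid on the other strand. The protocol in the labels marks strand, but no source used here says whether the counting used it.

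Of the G1/S genes, 3 of 4 tested were called higher. E2f1, a transcription factor that switches on S phase genes, was at 82.1 to 91.5 TPM in AM and 15.1 to 32.4 TPM in monocytes, a log2 difference of 1.84 ± 0.11 (adjusted p = 1.26e-07). Uhrf1, which carries DNA methylation through replication, was at 17.6 and 19.2 TPM in C57BL6J AM, 8.65 and 11.6 TPM in DBA2J AM and 0.00 to 1.69 TPM in monocytes, a log2 difference of 2.97 ± 0.19 (adjusted p = 1.49e-07). Neither gene overlapped between the groups. Ccne2, a cyclin of S phase entry that shares its locus with Ints8 on the other strand, did not pass the test (0.19 ± 0.17, adjusted p = 0.381), and Ccne1, its paralog, was higher by 1.32 ± 0.31.

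Of 9 mitotic cyclins and kinases, 8 were called higher in AM. Cdk1 (chr10:69336635-69352912, minus strand), the kinase of mitotic entry, was at 8.76 and 10.5 TPM in C57BL6J AM and 4.10 and 7.53 TPM in DBA2J AM. Monocytes had 0.00 to 0.80 TPM, 25 reads in all in 8 libraries, and the log2 difference was 2.70 ± 0.30 (adjusted p = 1.86e-05). Ccnb1, cyclin B1, was at 2.09 to 4.14 TPM in AM. It had no read in 6 of the 8 monocyte libraries and 2 reads in all of them together. Aurka, the centrosome kinase, was the member of the group that did not pass (0.52 ± 0.24, adjusted p = 0.0864). Bub1b (chr2:118598211-118641592, plus strand), a kinase-like protein of the spindle checkpoint, was at 24.2 and 24.4 TPM in C57BL6J AM and 12.3 and 13.4 TPM in DBA2J AM, against 0.00 to 5.14 TPM in monocytes. Its log2 difference was 3.05 ± 0.16 (adjusted p = 2.95e-08), with no overlap.

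Both genes of the anaphase-promoting complex pathway were higher in AM. Ube2c (chr2:164769929-164772902, plus strand), the ubiquitin-conjugating enzyme of that complex, was at 32.0 and 43.5 TPM in C57BL6J AM and 12.9 and 14.2 TPM in DBA2J AM. It ranged from 0.00 to 2.62 TPM in monocytes, with 15 reads in all and 4 libraries at 0. The log2 difference was 3.81 ± 0.44 (adjusted p = 2.45e-05). Cdc20, the activator of the complex, differed by 2.78 ± 0.52, and it overlaps Elovl1 on the other strand.

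In the centromere group, 4 of 5 genes were called higher, among them Birc5 (2.90 ± 0.29), which encodes survivin of the chromosome passenger complex, and Cenpf (2.55 ± 0.19). Cenpa, the histone variant that marks centromeres, was at 24.3 to 37.1 TPM in AM and 18.4 to 42.4 TPM in monocytes and did not pass the test. Of 7 spindle and cytokinesis genes, 6 were called higher, by 1.57 for the kinesin Kif20a to 2.42 for Stmn1, a protein that takes microtubules apart. Stmn1 had no read in any of 4 iMo libraries. Against a floor of 3 reads per library, its AM mean of 5.29 TPM was at least 4.78-fold higher than in iMo. Kif23, a kinesin of the midbody, was the exception (0.09 ± 0.19, adjusted p = 0.716).

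Top2a (chr11:98992947-99024189, minus strand), the topoisomerase that untangles replicated chromosomes, was at 28.4 and 26.1 TPM in C57BL6J AM and 14.0 and 17.1 TPM in DBA2J AM, against 0.65 to 6.02 TPM in monocytes. The log2 difference was 2.83 ± 0.25 (adjusted p = 3.04e-06). Mki67, which encodes the Ki-67 antigen used to mark cycling cells, was at 44.8 to 95.5 TPM in AM and 20.2 to 65.6 TPM in monocytes. These ranges overlapped, and the log2 difference was 1.01 ± 0.18 (adjusted p = 0.000589). Hmgb2, a chromatin protein, did not pass (-0.72 ± 0.41, adjusted p = 0.158).

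**Figure D2:**
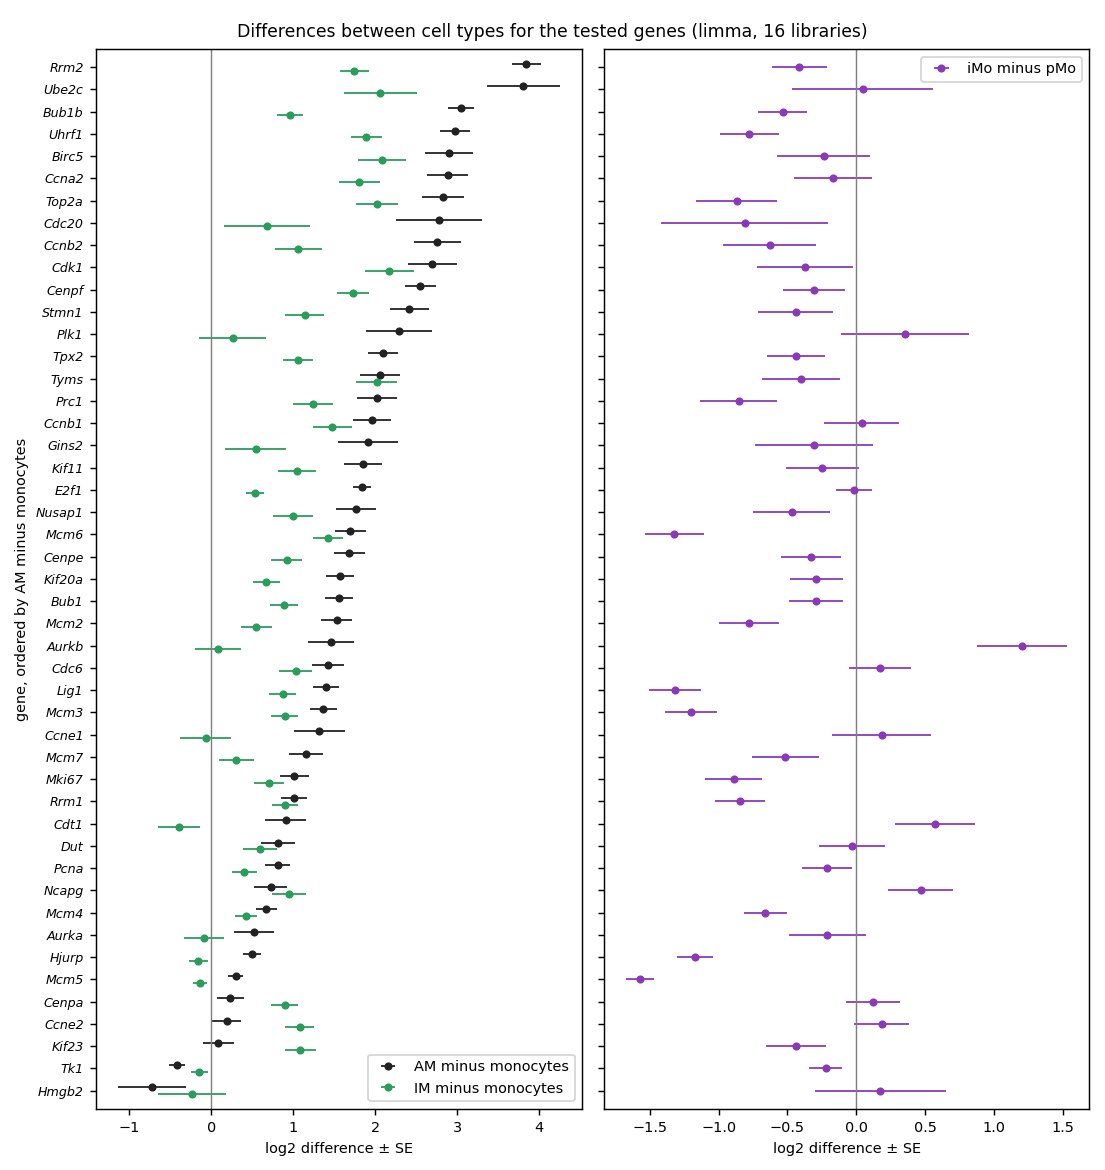
Log2 differences (points) with standard errors (bars) from limma for the 47 tested genes, ordered by AM minus monocytes. Black and green points in the left panel are AM and IM minus the mean of iMo and pMo, which share the monocyte libraries, and purple points in the right panel are iMo minus pMo. Rrm2 and Ube2c lie at 3.84 and 3.81 for AM, and Tk1 and Hmgb2 lie below 0.

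Interstitial macrophages also exceeded the monocytes for most of the genes. Of the 47, 34 were called higher in IM (33.4% of all genes) and 0 lower (12% of all genes). The median log2 difference was 0.90 against 0.24 for all genes. An unadjusted p under 0.05 in either direction was found for 35 of the 47 genes and for 7367 of all 13873 genes. Voom on recovered reads also called 0 lower. In 14 genes every IM library lay above every monocyte library, against 13.4% of all genes, and for 12 genes this held for AM and IM together, against 6.07% of all genes. Those 12 were Cdc6, Rrm2, Tyms, Uhrf1, Cdk1, Ccna2, Ccnb1, Bub1, Cenpf, Birc5, Tpx2 and Top2a. For 35 genes the IM mean lay above the monocyte mean and below the AM mean, as it did for 18.9% of all genes. Under quantile normalization the counts for IM were 18 higher and 4 lower, where 2519 and 3517 of all 13873 genes were. Under median-of-ratios scaling they were 29 and 3, where 3223 and 3365 of all genes were.

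Cdk1 in IM was at 3.29 and 9.38 TPM in C57BL6J and 6.33 and 2.51 TPM in DBA2J, all above the monocyte libraries, with a log2 difference of 2.17 ± 0.30 (adjusted p = 0.000214). Top2a was at 15.2, 10.2, 14.3 and 7.32 TPM in the IM libraries, also without overlap, and differed by 2.02 ± 0.25 (adjusted p = 0.000104). Tyms, at 4.31 to 13.1 TPM in IM and 0.16 to 1.82 TPM in monocytes, differed by 2.02 ± 0.25, close to its AM difference of 2.05. The IM libraries carried alveolar macrophage markers at a median of 15.5% of the AM level in C57BL6J (7 markers, 5.38% to 26.5%) and 5.70% in DBA2J (3.18% to 61.4%). The 48 genes were at a median of 51.0% of the AM level in C57BL6J IM and 58.6% in DBA2J IM. In IM against monocytes, 7 of 7 tested neutrophil markers, 6 of 6 endothelial markers (60.5 to 574 TPM summed in IM, 34.0 to 100.04 TPM in monocytes), 5 of 5 tested epithelial markers (19.4 to 163.7 TPM against 3.59 to 39.4 TPM) and 2 of 6 B and plasma cell markers were called higher. The part of other cells' RNA in the IM levels was not tested.

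Between the macrophages, most of the genes were higher in AM than in IM. Of the 47, 29 were called higher in AM (19.7% of all genes) and 3 lower (38.9% of all genes), and the median was 0.77 against -0.27 for all genes. This split moved with the scaling: it was 12 higher and 5 lower on the deposited TPM without rescaling, 40 and 2 after median-of-ratios scaling, and 40 and 1 after quantile normalization, as the median of all genes moved to -0.63, 0.03 and 0.07. In the same order, 1256 higher and 8139 lower, 4324 and 3926, and 4284 and 3798 of all 13873 genes were called. For 17 genes every AM library lay above every IM library, against 14.7% of all genes. Bub1b differed by 2.09 ± 0.18 (adjusted p = 3.41e-06), with 7.63 and 8.27 TPM in C57BL6J IM and 0.86 and 1.53 TPM in DBA2J IM. Rrm2 differed by 2.10 ± 0.20 and E2f1 by 1.30 ± 0.13.

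The 3 genes called lower in AM than in IM were a G1/S cyclin, a kinesin and a histone variant. Ccne2 was at 3.82 to 6.75 TPM in AM and 8.19 to 14.2 TPM in IM, with no overlap and a log2 difference of -0.89 ± 0.20 (adjusted p = 0.00294). Kif23 was at 11.5 to 26.9 TPM in AM and 24.3 to 50.4 TPM in IM, an AM mean 0.499 times the IM mean (adjusted p = 0.00238). Cenpa was at 24.3 to 37.1 TPM in AM and 29.5 to 65.9 TPM in IM, and differed by -0.66 ± 0.20 (adjusted p = 0.0138). With the strains pooled, the ranges of Kif23 and of Cenpa overlapped. Within each strain those of Cenpa did not, and those of Kif23 overlapped in C57BL6J only.

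The genes called between the monocyte types were mostly replication genes that were lower in iMo. Of the 47, 10 were called lower in iMo (14.1% of all genes) and 1 higher (8.31% of all genes), with a median of -0.33 against -0.14 for all genes. Of the 10, 6 came from the licensing and fork group of 11 genes, and 0 from the 9 mitotic cyclins and kinases or the 7 spindle genes. In 8 genes every iMo library lay below every pMo library, a share near the 13.7% of all genes. In 2 genes, Cdt1 and Aurkb, every iMo library lay above every pMo library, against 7.08% of all genes. Cdt1, a licensing gene without a call here, was at 68.3 to 76.5 TPM in iMo and 23.7 to 66.9 TPM in pMo. The iMo mean was the lowest of the 4 cell types for 33 genes, as for 29.6% of all genes. Summed B and plasma cell markers moved with this contrast, at 188 and 298 TPM in pMo against 106 and 146 TPM in iMo of C57BL6J, and 952 and 431 TPM against 264 and 198 TPM of DBA2J, and 1 of 6 of these markers was called lower in iMo. So did T and NK cell markers, of which 3 of 6 tested were called lower in iMo. Their sums were 245 and 277 TPM in pMo against 88.1 and 131.8 TPM in iMo of C57BL6J, and 35.0 and 114.7 TPM against 12.8 and 8.81 TPM of DBA2J. The part of these cells' RNA in the differences was not tested.

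Mcm5 (chr8:75109509-75128439, plus strand) had the widest gap on the log2(TPM + 1) scale. It was at 9.97 and 8.13 TPM in C57BL6J iMo, 11.0 and 11.2 TPM in DBA2J iMo, 27.6 and 31.9 TPM in C57BL6J pMo, and 33.1 and 34.7 TPM in DBA2J pMo. The groups did not overlap in either strain, and the log2 difference was -1.57 ± 0.10 (adjusted p = 3.52e-06). Mcm3 differed by -1.20 ± 0.19, Mcm6 by -1.32 ± 0.21, Mcm4 by -0.66 ± 0.15, Lig1 by -1.32 ± 0.19, Rrm1 by -0.84 ± 0.18 and Mki67 by -0.89 ± 0.21. Mcm2 (-0.78 ± 0.22) and Uhrf1 (-0.78 ± 0.21) were called as well, but each lost its call in 10 of the alternatives, among them TPM as deposited and quantile normalization. Rrm1 and Mki67 each lost theirs in 3, on TPM as deposited and with the libraries of either strain alone. Mcm3, Mcm6 and Lig1 lost theirs in 1, the C57BL6J libraries alone. Hjurp, the chaperone that loads Cenpa, differed by -1.17 ± 0.13 (adjusted p = 0.000121). On TPM as deposited, 5 of the 47 genes were called lower in iMo, where 831 of all 13873 genes were.

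Aurkb, the kinase of the chromosome passenger complex, was the gene called higher in iMo. It was at 21.5 and 17.0 TPM in C57BL6J iMo and 14.9 and 8.72 TPM in DBA2J iMo, against 3.59 and 8.25 TPM in C57BL6J pMo and 5.88 and 6.58 TPM in DBA2J pMo. All iMo libraries lay above all pMo libraries, and the log2 difference was 1.21 ± 0.33 (adjusted p = 0.0224). The call was lost without C57BL6J iMo 1, DBA2J iMo 1, C57BL6J pMo 1, DBA2J pMo 1 or DBA2J pMo 2.

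**Figure D3:**
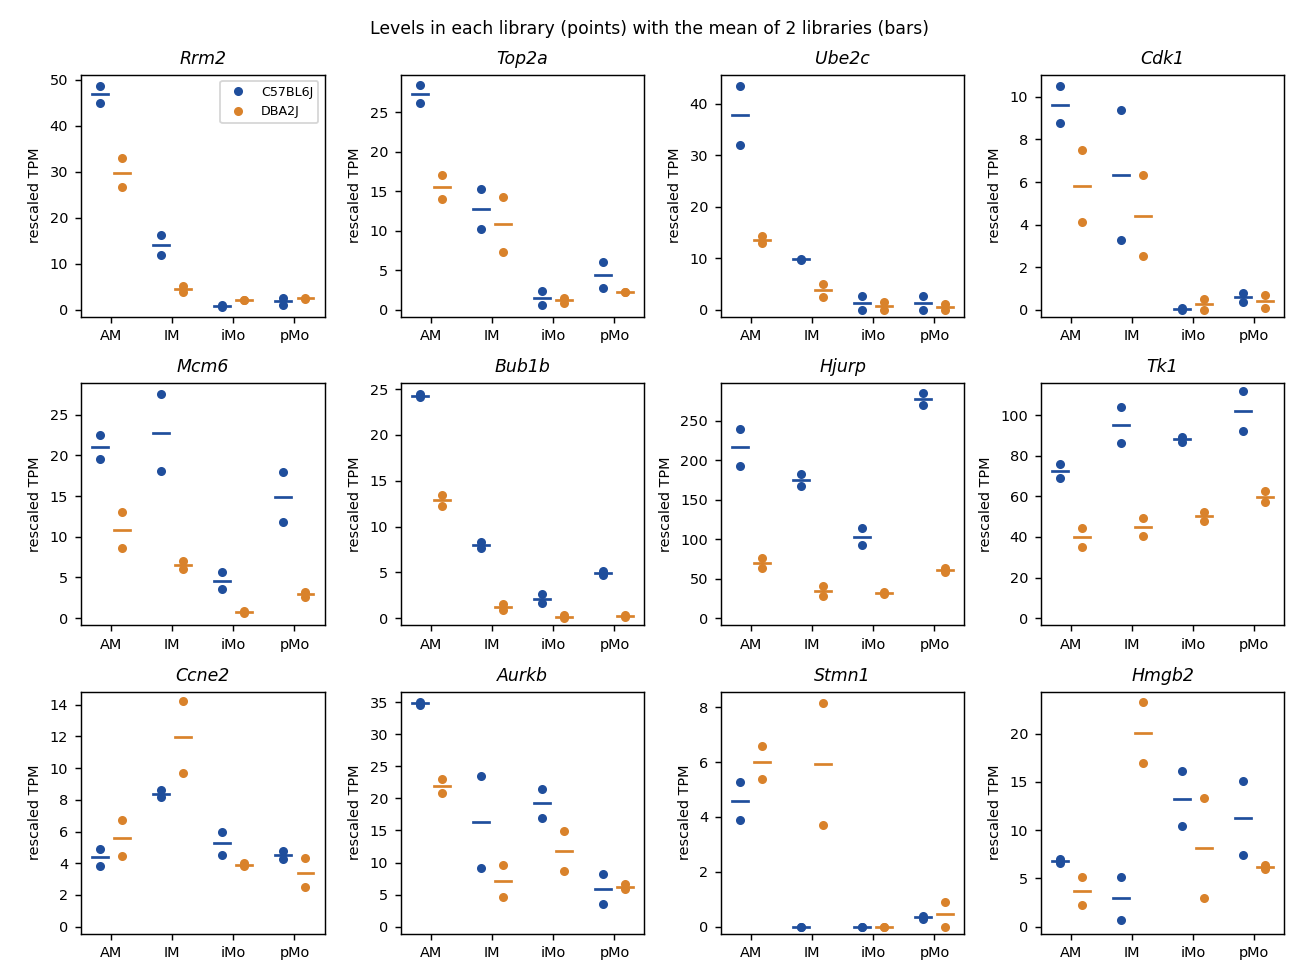
Levels of 12 genes in TPM (vertical axes, linear, own scale for each gene) in AM, IM, iMo and pMo. Points are libraries, bars are means of 2 libraries, blue is C57BL6J and orange is DBA2J. Rrm2 reaches 48.7 TPM in AM and reaches at most 2.62 TPM in monocytes, Hjurp and Bub1b lie lower in DBA2J in each cell type, and Stmn1 is at 0.00 in C57BL6J IM and in all iMo libraries.

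Hjurp, Bub1b, Mcm6 and Tk1 were lower in DBA2J, and few of the other genes passed the test of strain. Over the 4 cell types together, 7 genes were called lower in DBA2J (6.34% of all genes) and 1 higher (6.61% of all genes), with a median of -0.24 against 0.00 for all genes. The higher gene was Stmn1 (0.77 ± 0.19, adjusted p = 0.0224), whose call was lost in 5 alternatives, among them both voom fits and the fit without C57BL6J AM 2. In 6 genes, Mcm3, Mcm6, Tk1, Bub1b, Cenpa and Hjurp, both DBA2J libraries lay below both C57BL6J libraries in each of the 4 cell types, which held for 2.08% of all genes.

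Hjurp (chr1:88258856-88277579, minus strand) had the widest strain gap. It was at 193 and 240 TPM in AM, 183 and 167 TPM in IM, 92.3 and 114.6 TPM in iMo and 270 and 285 TPM in pMo of C57BL6J. In DBA2J the values were 63.4 and 76.3 TPM, 40.7 and 28.5 TPM, 30.5 and 32.9 TPM, and 58.4 and 63.7 TPM in the same order. The strains did not overlap in any cell type, and the log2 difference over the cell types was -1.94 ± 0.09 (adjusted p = 2.51e-07). The gene overlaps A730008H23Rik and 6430706D22Rik on its own strand and Mroh2a on the other, so its level is uncertain to the extent that reads of these genes were counted for it.

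Bub1b differed by -1.64 ± 0.13 over the cell types (adjusted p = 9.6e-06). In C57BL6J monocytes it was at 1.62 to 5.14 TPM, from 26 to 132 reads a library, and in DBA2J monocytes at 0.00 to 0.34 TPM, from 0 to 10 reads. As a fold of C57BL6J over DBA2J means, Bub1b exceeded Hjurp in IM (6.65 against 5.055), iMo (13.3 against 3.26) and pMo (18.9 against 4.545). In AM the fold was smaller for Bub1b (1.89 against 3.10). Mcm6 was at 11.8 and 17.9 TPM in C57BL6J pMo and 2.63 and 3.23 TPM in DBA2J pMo, and differed over the cell types by -1.54 ± 0.15 (adjusted p = 5.35e-05). Tk1 was at 68.9 to 111.9 TPM in all 8 C57BL6J libraries and 35.1 to 62.4 TPM in all 8 DBA2J libraries, with a difference of -0.87 ± 0.08 (adjusted p = 4.44e-05). For Tk1 the strains thus separated across all cell types, while the cell types overlapped when the strains were pooled. Smaller calls were Uhrf1 (-0.61 ± 0.15), Mcm3 (-0.58 ± 0.13) and Cenpa (-0.50 ± 0.14). The call of Cenpa was lost in 14 alternatives, most of which left out 1 library, and that of Uhrf1 in 4.

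In AM, 40 of the 47 genes had both DBA2J libraries below both C57BL6J libraries, against 20.9% of all genes, but only Hjurp and Tk1 passed the limma test: 2 genes were called lower (1.77% of all genes) and 0 higher (3.27% of all genes). The median strain difference in AM was -0.52 against 0.08 for all genes, and 45 of the 47 differences were below 0. An unadjusted p under 0.05 was found for 10 of the 47 genes and for 2169 of all 13873 genes. Ube2c, at 32.0 and 43.5 TPM in C57BL6J and 12.9 and 14.2 TPM in DBA2J, differed by -1.39 ± 0.72 (adjusted p = 0.42) and is an example of a wide gap that missed the threshold. With median-of-ratios scaling 8 genes were called lower in DBA2J AM (362 of all 13873 genes) and 0 higher (408 of all genes). With voom on recovered reads 14 were called lower and 0 higher, and the share of all genes in that fit is not given here. Without C57BL6J AM 1, C57BL6J AM 2 or DBA2J AM 1 the count was 1, since the call of Tk1 was lost. Summed endothelial markers were 43.2 and 65.9 TPM in C57BL6J AM and 193 and 410 TPM in DBA2J AM, and summed erythroid markers 14.4 and 78.4 TPM against 367 and 206 TPM. Summed epithelial markers went the other way, at 82.6 and 88.7 TPM in C57BL6J AM and 14.1 and 15.0 TPM in DBA2J AM. Their part in the strain difference was not tested.

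In IM the DBA2J libraries lay below the C57BL6J libraries with no overlap for 18 genes (30.6% of all genes) and above them for 5 (21.3% of all genes). In iMo the counts were 12 below (17.5% of all genes) and 8 above (23.2% of all genes), and in pMo 15 below (21.4% of all genes) and 7 above (21.2% of all genes). In AM, 1 gene, Stmn1, lay above (33.7% of all genes). Whether the count itself differed between cell types was not tested. In iMo, Hjurp, Tk1, Mcm6 and Bub1b were called lower, 4 genes (1.47% of all genes), and 0 higher (1.79% of all genes). The same 4 genes were called lower in pMo (2.41% of all genes), and 0 were called higher (2.47% of all genes). Unadjusted p-values under 0.05 numbered 12 in iMo (1890 of all 13873 genes) and 9 in pMo (2438 of all genes). The share in pMo was near that of all genes. Voom on recovered reads also called 0 higher in both. Without C57BL6J iMo 1, C57BL6J iMo 2 or DBA2J iMo 1, 2 genes were called lower in iMo, and without DBA2J iMo 2 only 1 was. In pMo the call of Tk1 was lost without C57BL6J pMo 2, DBA2J pMo 1 or DBA2J pMo 2. Summed T and NK cell markers were 88.1 to 277 TPM in C57BL6J monocytes and 8.81 to 114.7 TPM in DBA2J monocytes, and their part was not tested.

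In IM, 6 genes were called lower in DBA2J (8.12% of all genes) and 2 higher (3.96% of all genes). The lower genes were the same Hjurp, Tk1, Mcm6 and Bub1b with Rrm2 (-1.45 ± 0.28, adjusted p = 0.0085) and Lig1 (-0.94 ± 0.27, adjusted p = 0.0441). Lig1 lost its call in 18 alternatives, Rrm2 without C57BL6J IM 2 or DBA2J IM 2, and without C57BL6J IM 2 the count was 3. The higher genes were Stmn1 and Hmgb2. Stmn1 had 0 reads in both C57BL6J IM libraries and 21 and 11 reads in the DBA2J ones (8.16 and 3.71 TPM), at least 3.93-fold higher against a floor of 3 reads per library. Hmgb2 was at 5.15 and 0.69 TPM in C57BL6J IM and 23.2 and 17.0 TPM in DBA2J IM, with 2.69 ± 0.67 (adjusted p = 0.027). The call of Hmgb2 was lost without C57BL6J IM 2, DBA2J IM 1 or DBA2J IM 2. Several marker sets moved between the strains in IM. The neutrophil sum was 5534 and 6361 TPM in C57BL6J IM and 8474 and 7702 TPM in DBA2J IM, and Ngp, a neutrophil granule gene, was at 11.7 and 5.39 TPM against 52.9 and 58.6 TPM. Inflammatory monocyte markers summed to 2804 and 1962 TPM in C57BL6J IM and 4512 and 4469 TPM in DBA2J IM. Endothelial markers summed to 410 and 574 TPM against 60.5 and 289.9 TPM, with 0 of 6 called. Of 5 tested epithelial markers 3 were called lower in DBA2J IM, with sums of 61.5 and 163.7 TPM against 19.4 and 83.4 TPM. The part of these cells' RNA in the strain difference was not tested.

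**Figure D4:**
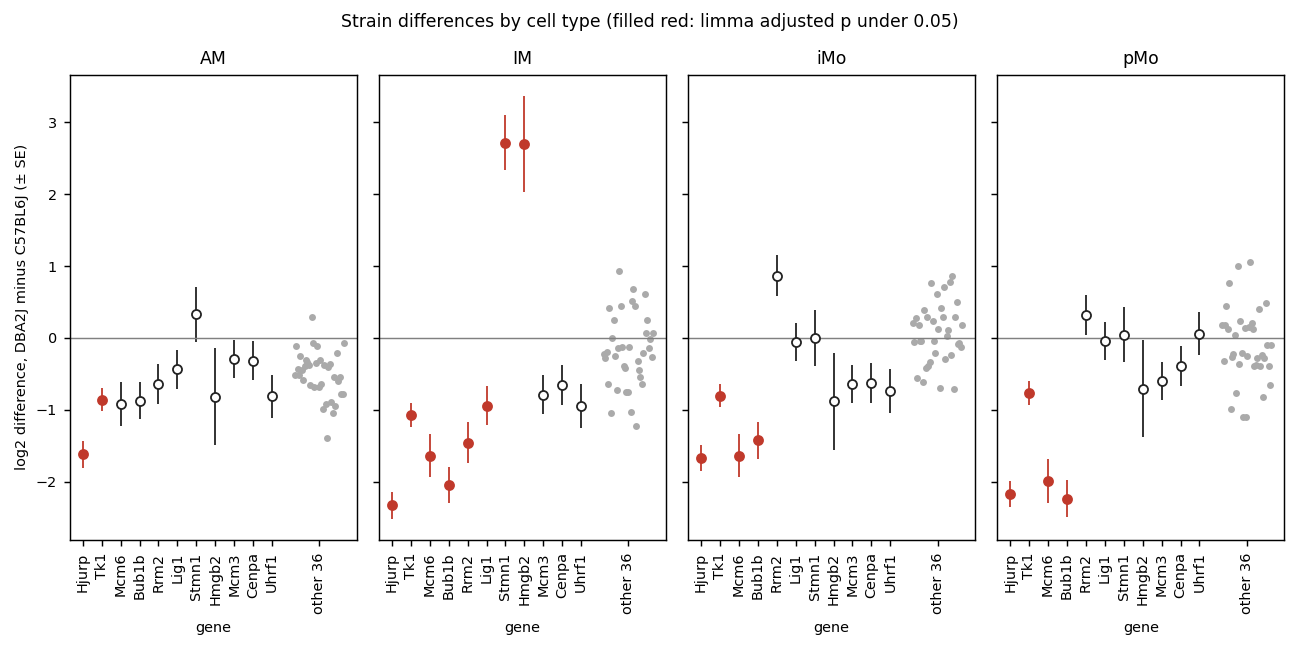
DBA2J minus C57BL6J log2 differences (vertical axis) in AM, IM, iMo and pMo, with standard errors, for 11 genes and, as grey points, for the other 36 tested genes. Filled red points passed the limma test at adjusted p under 0.05 and open points did not. Hjurp and Tk1 are red in all 4 panels, Mcm6 and Bub1b in IM, iMo and pMo, and most grey points in AM lie below 0.

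A strain difference that itself differed between cell types was called for 2 genes, Rrm2 (adjusted p = 0.0192) and Stmn1 (adjusted p = 0.0276), where 6.07% of all genes were called. Rrm2 was lower in DBA2J in AM (-0.64) and IM (-1.45) and had positive differences in iMo (0.87) and pMo (0.32). For Bub1b, with strain differences from -0.87 in AM to -2.23 in pMo, the test of the interaction did not pass (adjusted p = 0.104).

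Related genes outside the list behaved as follows. Of 35 tested genes of a wider replication list, 18 were called higher and 1 lower in AM than in monocytes, and of 40 tested genes of a wider mitosis list, 36 were higher and 1 lower, where 27.6% of all genes were higher and 30.1% lower. Cdca3, a mitotic entry factor, was at a mean of 33.3 TPM in AM and 2.02 TPM in iMo (3.22 ± 0.44 for AM minus monocytes), and Aspm, a spindle pole protein, at 8.10 and 0.13 TPM (2.78 ± 0.17). Chaf1a, of the chromatin assembly factor that follows the fork, differed by 2.04 ± 0.19. For IM minus monocytes the counts were 14 higher and 1 lower for replication and 30 and 1 for mitosis, where 33.4% of all genes were higher and 12% lower, so the share of replication genes called higher was near that of all genes. For iMo minus pMo they were 1 higher and 9 lower for replication and 3 and 7 for mitosis, where 8.31% of all genes were higher and 14.1% lower, and both shares for mitosis were near those of all genes. The genes lower in iMo included Pold1, the catalytic subunit of DNA polymerase delta (-1.18 ± 0.14), Wdhd1 (-1.09 ± 0.18), Cks2 (-1.85 ± 0.39), a partner of the cyclin-dependent kinases, Knstrn (-1.55 ± 0.21) and Tacc3 (-1.29 ± 0.19), both of the spindle. The 4 higher genes were Timeless (1.25 ± 0.20), Racgap1 (1.68 ± 0.17), a cytokinesis regulator, Espl1 (1.40 ± 0.20), the separase gene, and, named after its values were seen, Anln (0.61 ± 0.19).

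Regulators of the cycle were called in both directions in AM against monocytes, as were all genes (27.6% higher and 30.1% lower). Of 18 tested cycle transcription factors, 6 were called higher and 8 lower. Myc was at 94.6 to 163.3 TPM in AM, 34.2 to 78.0 TPM in IM and 3.49 to 13.5 TPM in monocytes, with no overlap between the 3 (3.61 ± 0.30 for AM minus monocytes). Foxm1, the activator of mitotic genes, differed by 2.08 ± 0.12, while E2f2 was lower in AM (-1.52 ± 0.21). Of 8 tested G1 cyclins and kinases, 5 were higher and 2 lower in AM. Ccnd2, a D-type cyclin, was at 193 to 310 TPM in AM and 6.45 to 83.6 TPM in monocytes (3.22 ± 0.18), whereas Ccnd1 was at 4.29 to 11.9 TPM in AM and 56.0 to 157.6 TPM in IM (-3.44 ± 0.16 for AM minus IM). Of 14 tested brakes of the cycle, 3 were higher in AM than in monocytes, Cdkn1a, which encodes p21, among them (1.58 ± 0.16), and 5 lower, with Cdkn2d (-1.90 ± 0.21) and Cdkn1b, which encodes p27 (-1.27 ± 0.14). In AM against IM, 1 brake was higher and 7 were lower, where 19.7% and 38.9% of all genes were.

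Most of the genes had open chromatin at the start site in each cell type. A deposited ATAC-seq peak lay within 500 bp of the annotated start for 40 of the 48 genes in C57BL6J AM (55.9% of all genes tested) and 42 in DBA2J AM (61.5%). In IM the counts were 47 in C57BL6J (79.6%) and 44 in DBA2J (65.7%), and in iMo 44 in C57BL6J (67.1%) and 45 in DBA2J (70.4%). In pMo they were 45 in C57BL6J (68.7%) and 43 in DBA2J (66.5%). The AM lists were thus lowest for these genes and for all genes alike. Such a peak was present in all 8 lists for 36 genes, Rrm2, Ube2c, Bub1b, Mcm6 and Hjurp among them, and for 47.7% of all genes. Bub1b, Mcm6 and Hjurp thus had a peak in both strains while their RNA differed. Counted from the top score, Hjurp ranked at 1.13%, 0.25%, 0.32% and 0.13% of the C57BL6J AM, IM, iMo and pMo lists. In the DBA2J lists it ranked at 7.09%, 1.72%, 1.53% and 1.41%. Bub1b ranked further down in DBA2J AM, IM and pMo (pMo 56.3% against 15.1%) and further up in iMo (38.85% against 55.2%). Mcm6 ranked further down in DBA2J IM, iMo and pMo (pMo 16.0% against 6.27%) and further up in AM (66.8% against 73.2%). These ranks were not tested. Ccna2 had none within 500 bp in any list, Tyms and Tk1 had one in 3 lists, and Cenpe, Ccne2 and Chek1 lacked one in both AM lists. With 1 list per group there is no replicate test, and the lists differ in length, from 24429 to 70013 peaks.

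**Figure D5:**
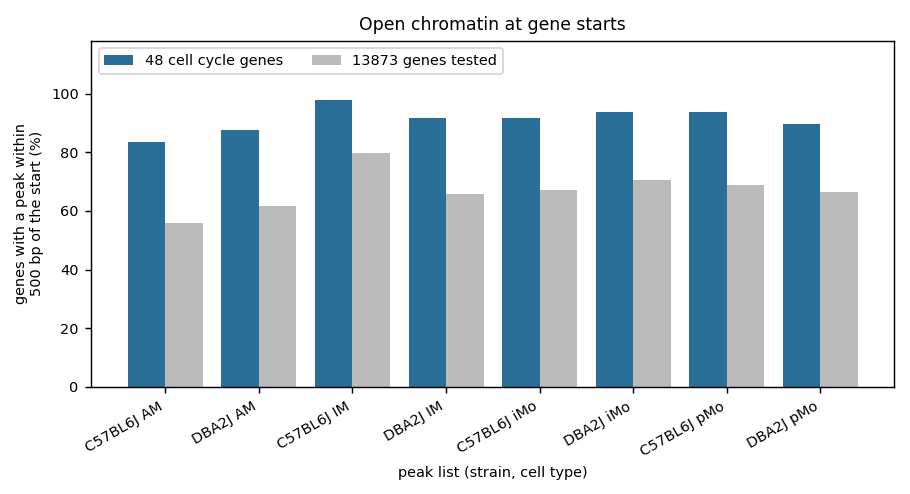
Share of genes (%) with an ATAC-seq peak within 500 bp of the annotated start in each of the 8 deposited peak lists. Blue bars are the 48 cell cycle genes and grey bars the 13873 genes tested. The lowest blue bar, 83.3%, is C57BL6J AM and the highest, 97.9%, C57BL6J IM, and each stands above the grey bar of its list.

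Promoter sequences of 40 of the 48 genes were in the RefSeq table (GRCm38.p6, 250 bases before to 50 after the start). The cell cycle homology region element (CHR, TTTGAA) and the CCAAT box, elements of promoters active late in the cycle, were searched on both strands, as were the E2F motifs TTTGGCGC and TTTCCCGC known from S phase genes. A gene was counted if any promoter listed for it held the motif, so 2 motifs of a gene could lie in different promoters. CHR was found for 18 of the 40 genes (45.0%), against 20.2% of all 27025 genes in the table and 14.6% of the 10343 tested ones. CCAAT was found for 29 (72.5%), against 41.1% and 42.6%. All 18 genes with CHR also had CCAAT (45.0%, against 9.0% of all genes in the table and 6.9% of tested ones). An E2F motif was found for 7 (17.5%, against 1.8% and 3.3%), namely Mcm3, Mcm5, Mcm6, Mcm7, Cdc6, Cdt1 and Ncapg. Such matches describe letters and do not show binding. The first 3 promoters below belong to mitotic genes with wide AM differences and hold CHR with CCAAT, and the last 2 belong to licensing genes and hold an E2F motif. Capitals mark the motifs on either strand, and sequences run 5′ to 3′ along the gene.
Ube2c promoter, chr2:164769679-164769978, plus strand: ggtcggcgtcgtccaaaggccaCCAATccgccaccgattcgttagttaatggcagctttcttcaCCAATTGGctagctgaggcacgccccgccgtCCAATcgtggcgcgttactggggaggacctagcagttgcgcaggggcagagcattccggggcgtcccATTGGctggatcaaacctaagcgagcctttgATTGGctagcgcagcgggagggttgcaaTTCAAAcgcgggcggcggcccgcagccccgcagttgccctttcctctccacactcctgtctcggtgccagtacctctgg
Bub1b promoter, chr2:118597961-118598260, plus strand: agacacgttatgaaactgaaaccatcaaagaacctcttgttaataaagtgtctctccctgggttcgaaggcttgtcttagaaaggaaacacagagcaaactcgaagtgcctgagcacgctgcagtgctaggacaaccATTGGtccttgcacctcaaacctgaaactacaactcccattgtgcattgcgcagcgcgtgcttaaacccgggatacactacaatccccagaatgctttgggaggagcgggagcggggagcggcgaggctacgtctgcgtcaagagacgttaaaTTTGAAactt
Top2a promoter, chr11:99024140-99024439, minus strand: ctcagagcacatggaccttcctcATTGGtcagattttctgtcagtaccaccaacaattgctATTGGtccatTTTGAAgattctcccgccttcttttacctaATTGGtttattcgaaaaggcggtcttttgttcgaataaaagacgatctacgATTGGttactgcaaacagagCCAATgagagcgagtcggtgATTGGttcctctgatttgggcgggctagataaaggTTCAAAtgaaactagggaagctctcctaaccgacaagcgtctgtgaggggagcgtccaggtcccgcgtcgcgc
Mcm6 promoter, chr1:128359656-128359955, minus strand: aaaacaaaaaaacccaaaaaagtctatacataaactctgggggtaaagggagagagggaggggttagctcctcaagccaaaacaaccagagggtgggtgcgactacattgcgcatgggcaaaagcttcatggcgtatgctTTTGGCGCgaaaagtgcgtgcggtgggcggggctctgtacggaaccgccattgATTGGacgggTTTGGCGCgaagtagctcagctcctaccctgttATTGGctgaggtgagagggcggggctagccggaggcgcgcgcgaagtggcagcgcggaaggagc
Cdc6 promoter, chr11:98907901-98908200, plus strand: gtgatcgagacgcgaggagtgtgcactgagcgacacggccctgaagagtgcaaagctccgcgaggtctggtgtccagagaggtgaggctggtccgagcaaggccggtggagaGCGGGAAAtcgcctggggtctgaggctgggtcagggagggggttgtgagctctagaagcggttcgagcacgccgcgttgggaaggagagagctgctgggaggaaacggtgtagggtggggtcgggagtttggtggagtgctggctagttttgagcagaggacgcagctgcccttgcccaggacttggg

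Ube2c and Top2a held 6 CCAAT matches each, and Bub1b held 1. In Ube2c the run CCAATTGG counts as a match on each strand. Mcm6, the licensing gene with the widest strain gap, held 2 E2F matches and 2 CCAAT matches, and Cdc6, the loader of the MCM ring, held 1 E2F match and no CCAAT.

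Read numbers set how far low levels can be resolved. In AM each of the 48 genes had a median of at least 20 reads. In iMo 22 genes and in pMo 14 genes had a median under 10 reads per library, and in IM 5 genes had. Levels of Ccnb1, Ube2c, Cdk1 and Stmn1 in monocytes, among others, therefore rest on few reads. Those of Birc5 (37 reads in the 8 monocyte libraries together), Rrm2 (49) and Cenpf (50) do too. So does the level of Uhrf1 in iMo, with a median of 4.0 reads.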

How the data were processed

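Messenger RNA of 16 libraries and open chromatin of 16 libraries were measured, 2 per cell type and strain, and groups were taken from the labels. The authors deposited TPM values per gene in mm10 coordinates, and the submitters' processing notes name Bowtie, STAR and HOMER with neither version nor role. The deposited Length column, a measure in bp, equals end minus start for 99.2% of genes, so the TPM are per genomic span. The deposited peak lists give positions and a score per peak by the authors, 1 list per cell type and strain. No source used here gives the scale of the score. It was used to rank peaks within a list.

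TPM times Length was a whole multiple of a step in each library for 99.98% to 100% of the values checked (tolerance 0.001 reads beyond rounding), which gave the reads. The 2 ribosomal entries took 22.6% to 67.6% of the listed TPM and were removed, and columns were rescaled to 1000000. Their share was 64.3% to 67.6% in AM, 40.9% to 45.0% in IM, 22.6% to 44.7% in iMo and 43.0% to 57.4% in pMo. Rescaling therefore raised AM levels most. Tests used limma 3.58.1 in R 4.3.3 on log2(TPM + 1), with 8 group means, a variance trend, genes whose mean reached 1 TPM, and Benjamini-Hochberg adjustment over 13873 genes, without a replicate block. Fold changes on that scale understate changes of low genes. The fit was checked on simulated data. Replicates correlated at r = 0.948 to 0.982 on log2 values, and none agreed within sampling noise. No batch is labelled.

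The genes, the gene lists and the tests were chosen with earlier results of these data known. All 48 genes may be named; fully described are at most the 10 widest called differences per comparison, genes called by strain, and at most 6 called genes per wider list and comparison. Further examples, among them Mcm2, Mcm5, Pcna, Mki67 and genes without a call, were chosen after their values were seen. The alternatives were other scalings, pseudocounts (0.1) and filters (none, 5 TPM), leaving out each library, 1 strain at a time, the replicate block and, added after seeing the data, voom on the recovered reads. Gene and peak positions were compared within mm10.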

Additional observations from a re-analysis of the deposited data

Results flagged for a closer look

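The strain difference differed between cell types for Rrm2, by limma's interaction test (adjusted p = 0.0192). DBA2J minus C57BL6J was -0.64 in AM and -1.45 in IM, but 0.87 in iMo and 0.32 in pMo, on 2 to 10 reads per monocyte library. Stmn1 was picked out by the same test (adjusted p = 0.0276), with 2.71 in IM, 0.33 in AM, 0.05 in pMo and 0.00 in iMo, where the IM value compares 21 and 11 reads with 0 and 0 and so depends on the pseudocount. Leaving out 1 library at a time gave 0 to 4 genes with such a call, 0 without C57BL6J IM 2, DBA2J iMo 1 or DBA2J iMo 2 and 4 without C57BL6J IM 1.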

How the results depend on the processing

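The single gene results repeated were called ones only, at most the 10 widest per cell type comparison and each one called by strain. No alternative reversed any of these. Other genes entered the alternatives only through the counts. Of 2062 repeats of 76 single gene results, 1946 kept direction and side of the threshold and 116 lost the call. Counts below are numbers of genes called. With a filter on a mean of 5 TPM, fewer genes are tested, and the counts higher were 25 for macrophages minus monocytes, 18 for AM minus IM, 25 for AM minus monocytes and 20 for IM minus monocytes, 0 by strain over all cell types, 1 by strain in IM, 1 in iMo and 1 for the interaction. On TPM as deposited, AM minus IM gave 12 higher and 5 lower, iMo minus pMo 5 lower and AM minus monocytes 33 higher and 2 lower. With quantile normalization there were 2 lower for macrophages minus monocytes, 1 lower for AM minus IM, 2 higher for iMo minus pMo, 18 higher and 4 lower for IM minus monocytes, 0 higher by strain over all cell types and 4 lower by strain in AM. Median-of-ratios scaling gave 3 lower for IM minus monocytes, 8 lower by strain in AM and 1 for the interaction. A pseudocount of 0.1 gave 19 higher for AM minus IM, 0 higher by strain over all cell types and 1 higher by strain in iMo. Libraries of C57BL6J alone gave 0 lower for macrophages minus monocytes, 10 higher and 1 lower for AM minus IM, 0 higher and 2 lower for iMo minus pMo, and 0 lower for AM minus monocytes, and DBA2J alone gave 2 lower, 15 higher for AM minus IM, 0 higher and 6 lower for iMo minus pMo and 2 lower for IM minus monocytes. In these fits fewer samples were used. Voom on recovered reads gave 2 higher for iMo minus pMo, 0 higher by strain over all cell types, 14 lower by strain in AM and 4 for the interaction, and with median-of-ratios 4 lower for IM minus monocytes and again 0, 14 and 4. For the other changes the cause was not tested.

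Leaving out 1 library at a time, with the lone library of a group assumed to vary like the others, gave 0 to 1 higher for iMo minus pMo, 0 to 1 lower for IM minus monocytes, 0 to 1 higher by strain over all cell types, 1 to 2 lower by strain in AM, 1 to 3 higher and 3 to 8 lower by strain in IM, 0 to 1 higher and 1 to 4 lower by strain in iMo, and 0 to 4 for the interaction. The replicate numbers did not pair the libraries: deviations correlated at -0.06 to 0.16 with a median of 0.02 over 28 pairs of groups, 4 of them over 0.1. A replicate block left the counts of 40, 29, 10, 41, 34 and 7 genes as they were. With only the peaks ranked by score above the middle of each list, 21 of the 48 genes in C57BL6J AM (34.9% of all genes tested) and 25 in DBA2J AM (41.3%) had a peak at the start, against 37 to 44 in the other 6 lists (52.6% to 71.6%). Low read numbers in monocytes limit what can be told of mitotic genes there.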
